A study of Mus musculus with 12 samples.

Results

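The genes described here encode the degradative machinery of the lysosome: 10 peptidases, 7 glycosidases and sulfatases, 5 proteins of lipid breakdown and export, 3 membrane proteins, 12 parts of the proton pump (V-ATPase), and the transcription factor Tfeb. Of the 38 gene symbols, 37 were the name of at least 1 non-control probe on the array, through 45 probes. Tfeb was named on no probe, and it was found through its RefSeq accession on 1 probe that carries the older symbol Tcfeb. Its values are given apart and enter none of the counts over the 37. The whole table held 23888 tested features, a feature being a gene, or a probe without a gene symbol.

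All cells were RAW264.7, an established mouse macrophage-like line. The 4 groups had 3 arrays each. The control group received a scrambled, non-targeting siRNA for 24 h, and its LPS-stimulated counterpart received the same siRNA and then E. coli LPS at 1 µg/ml for a further 4 h. The remaining groups received an siRNA against the long noncoding RNA lincRNA-Tnfaip3 on the same schedule, without and with LPS. Every group therefore carried an siRNA, and no untransfected cells were included. The labels do not say whether replicates were separate cultures, so p-values here reflect only how far these samples differ from each other, and that spread may be technical. They also do not say how much of the lincRNA was lost, and 0 probes were named for it, so its knockdown was not checked here.

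Lysosomes are acidic compartments in which hydrolases cut proteins, glycans and lipids taken up by phagocytosis or delivered by autophagy. The V-ATPase pumps protons through its membrane sector V0, driven by ATP hydrolysis in its cytosolic sector V1. TFEB and its relatives bind short palindromic elements upstream of many of these genes, and mTORC1 holds TFEB in the cytosol when nutrients are plentiful. In macrophages the same machinery kills ingested microbes and processes antigens.

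Levels are log2 signals relative to the 75th percentile of the same array, so a level of 5 is far above and a level of -2 is well below that percentile, and levels of different genes are not compared. The percentile ranged from 311.9 to 477.7 signal units over the arrays. Between 27181 and 36367 probes per array were well above background, and the lowest counts were those of control arrays 1 and 2 (27181 and 29441). These arrays were alone on slide 1. Slide 2 carried 8 arrays from all 4 groups, and slide 3 carried LPS arrays 2 and 3 of the lincRNA siRNA. The LPS calls of single genes are therefore set against a fit with the slide as a block. Those of the lysosomal genes are also set against slide 2 alone. Slides 1 and 3 each held a single group, so the slide-block changes also come from the slide 2 arrays. There the control group and the lincRNA siRNA with LPS have 1 array each, so these fits are not separate checks. All 6 LPS-response genes examined rose in both siRNA groups, Il6 by 6.85 and 6.01 on the log2 scale, Cxcl10 by 4.82 and 4.75, Il1b by 2.85 and 2.37, Ptgs2 by 2.57 and 2.24, Tnf by 1.39 and 1.37, and Nfkbia by 0.75 and 0.77; with the slide as a block all but Nfkbia passed in both (adjusted p = 0.187 and 0.248 for Nfkbia). Of 10 macrophage markers on the array, 9 were well above background on all 12 arrays. Of 17 markers of other cell types, 4 were well above background on all 12 and 4 on none; over the 8 that were tested the mean level ranged from -2.63 to -2.17 in the control group and from -2.15 to -1.45 with LPS, and their part in the results was not tested. All 45 lysosomal probes were well above background on all 12 arrays, and 0 were saturated.

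In cells with the control siRNA, 3 of the 37 lysosomal genes fell with LPS and 0 rose, at an adjusted p under 0.05 (limma, Benjamini-Hochberg over all features). The count was 0 without control replicate 1, control replicate 2 or LPS replicate 3, 1 without LPS replicate 2, and 6 without control replicate 3, of which 5 fell and 1 rose. The 3 were Lipa and Npc1, of lysosomal cholesterol handling, and Atp6ap2, an accessory V-ATPase protein. Over all features, 1.89% fell and 3.26% rose in this comparison, which is 451 and 778 features; with each array centred on its median these became 965 and 477, and 5 lysosomal genes fell and 0 rose. In cells with the lincRNA siRNA, 0 of the 37 passed, against 0.347% lower and 1.5% higher over all features. There the lowest adjusted p among the 37 was 0.323, and 3 of the 37 had an unadjusted p under 0.05, as did 10.2% of all features. With LPS averaged over both siRNAs, Lipa and Npc1 fell and 0 rose, against 4.01% lower and 4.2% higher over all features.

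The lysosomal changes were small. Each array averages a whole sample, so fewer cells expressing a gene and less of its RNA per cell cannot be told apart. In control-siRNA cells the median change was -0.14, with 26 of 37 genes below 0, while the median over all features was 0.06 with 44.1% below 0. That median over all features depends on the processing. It was -0.01 with quantile normalization and -0.02 over features well above background on all 12 arrays. With the slide as a block it was -0.05, against -0.13 for the lysosomal genes. In lincRNA-siRNA cells the medians were -0.04 for the lysosomal genes and -0.01 for all features. The control-siRNA arrays of 12 lysosomal genes lay lower with LPS without overlap, and those of 0 lay higher, where 15.3% and 14.8% of all features did so. With the lincRNA siRNA the same counts were 5 lower and 1 higher, where 7.52% and 8.01% of all features did so. The 95% confidence interval stayed inside a 1.5-fold change in either direction for 21 of the 37 genes with the control siRNA and 31 with the lincRNA siRNA. It stayed inside a 2-fold change for 35 and 36.

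**Figure D1:**
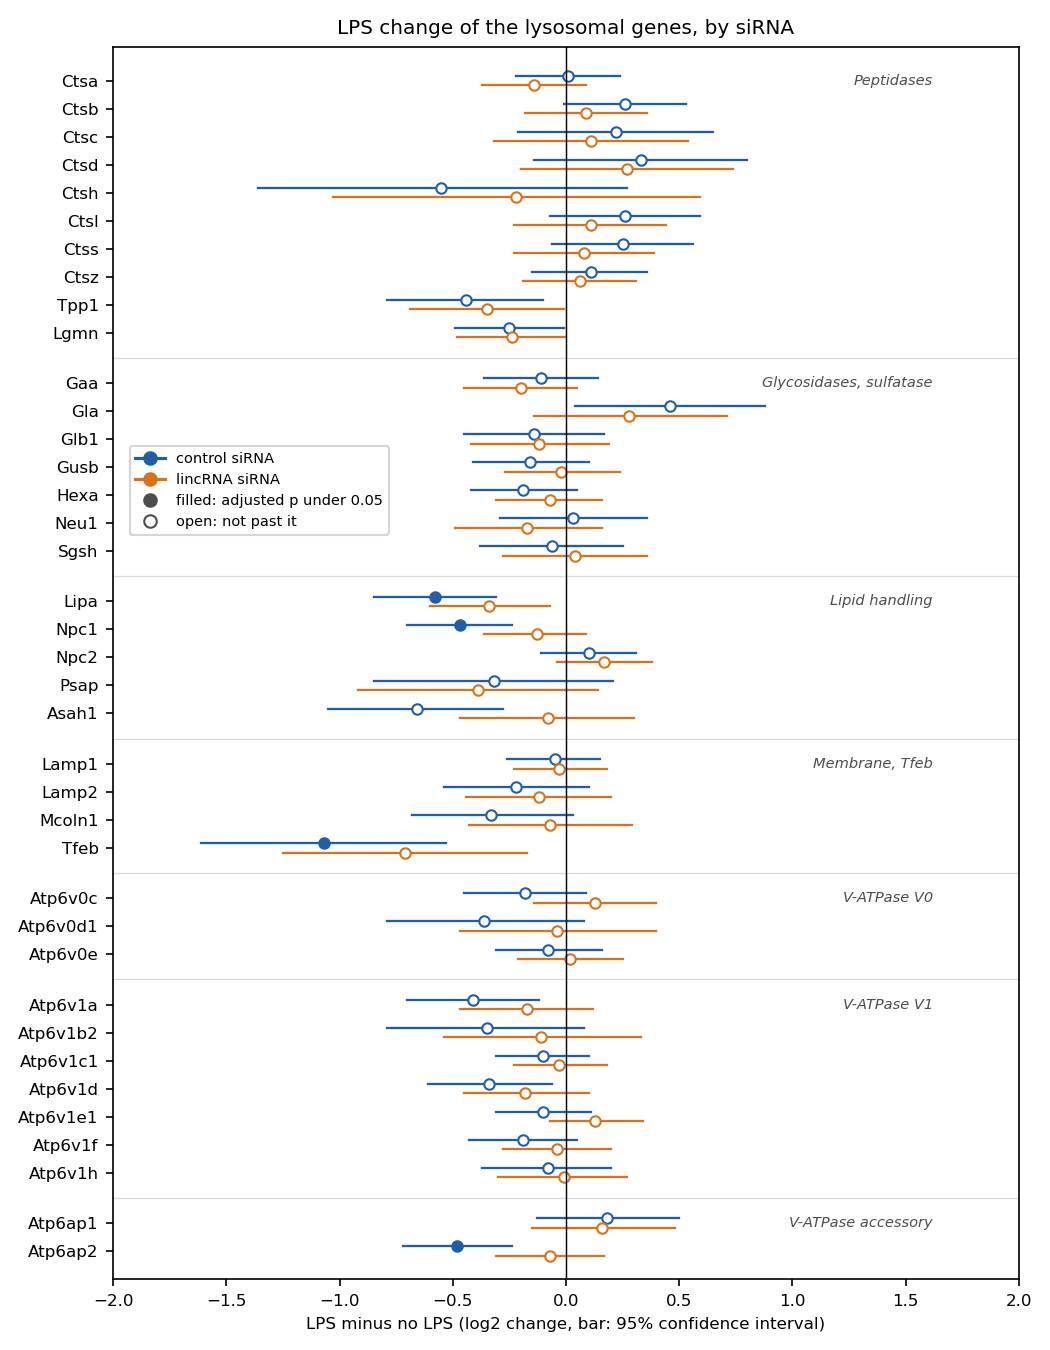
Log2 change with LPS of the 38 genes in control-siRNA cells (blue) and lincRNA-siRNA cells (orange), by role, with 95% confidence intervals; filled points passed an adjusted p under 0.05. The filled points are Lipa, Npc1, Tfeb and Atp6ap2 in control-siRNA cells, all below 0, and no orange point is filled.

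Lipid handling held 2 of the 3 genes that fell. Lipa encodes the acid lipase that frees cholesterol and fatty acids from lipoprotein esters, and its probe lies on mouse chromosome 19 (34567717 to 34567776, minus strand, mm9). Its level was 5.04, 5.07 and 4.71 on the control arrays and 4.22, 4.50 and 4.35 with LPS. With the lincRNA siRNA it was 4.82, 4.82 and 4.97 without LPS and 4.57, 4.55 and 4.48 with it. The LPS arrays were lower than every unstimulated array of the same siRNA in both cases. The change was -0.58 ± 0.12 (SE, adjusted p = 0.024) with the control siRNA, -0.34 ± 0.12 (adjusted p = 0.323) with the lincRNA siRNA, and -0.46 (adjusted p = 0.0094) averaged over both. The control array on slide 2 was the lowest of the 3, and with the slide as a block the change was -0.35 (adjusted p = 0.547; on slide 2 alone, adjusted p = 0.72). The call was lost without control replicate 1 (adjusted p = 0.1), control replicate 2 (0.108), LPS replicate 1 (0.059) or LPS replicate 3 (0.092), while the average over both siRNAs passed whichever array was left out and did not pass in the slide-block fit (-0.33, adjusted p = 0.217).

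Npc1 encodes the membrane protein that moves that cholesterol out of the lysosome. It was at 0.86, 0.92 and 0.91 on the control arrays and at 0.52, 0.34 and 0.41 with LPS. In lincRNA-siRNA cells it was at 0.69, 0.44 and 0.63 without LPS and 0.33, 0.51 and 0.51 with it. The control arrays stood above the other 9 arrays, and under the lincRNA siRNA the groups overlapped. The change was -0.47 ± 0.10 (adjusted p = 0.028) with the control siRNA and -0.13 ± 0.10 (adjusted p = 0.768) with the lincRNA siRNA; averaged over both it was -0.30 (adjusted p = 0.0302), a call lost with 7 of the 12 arrays left out (highest adjusted p = 0.0836) and in the slide-block fit (adjusted p = 0.138). With the slide as a block the control-siRNA change was -0.48 (adjusted p = 0.278; on slide 2 alone, adjusted p = 0.524), and the call was lost without control replicate 1 (0.0847), control replicate 2 (0.11), LPS replicate 2 (0.116) or LPS replicate 3 (0.107). Npc2, the soluble partner that hands cholesterol to Npc1, was at 5.44, 5.38 and 5.41 on the control arrays and 5.60, 5.44 and 5.50 with LPS, and at 5.52, 5.64 and 5.52 against 5.81, 5.59 and 5.79 under the lincRNA siRNA. Its changes were 0.10 and 0.17 and neither passed (adjusted p = 0.526 and 0.615).

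Asah1, acid ceramidase, had the most negative change of the 37 with the control siRNA, -0.66 ± 0.17, and did not pass (adjusted p = 0.0547). Its level was 2.86, 2.87 and 2.68 on the control arrays and 2.40, 2.21 and 1.80 with LPS, without overlap. The lincRNA-siRNA arrays were at 1.98, 2.06 and 1.99 without LPS and 2.17, 1.95 and 1.65 with it. All 6 of these lay within the range of the control-siRNA arrays with LPS or below it. Psap, the precursor of the saposins that help hydrolases reach sphingolipids, was at 3.79, 3.12 and 3.06 on the control arrays and 2.77, 2.91 and 3.34 with LPS. Under the lincRNA siRNA it was at 3.81, 3.32 and 3.14 without LPS and 3.00, 3.08 and 3.01 with it. Replicate 1 was the highest array in both unstimulated groups, and neither change passed (-0.32 and -0.39, adjusted p = 0.429 and 0.675).

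**Figure D2:**
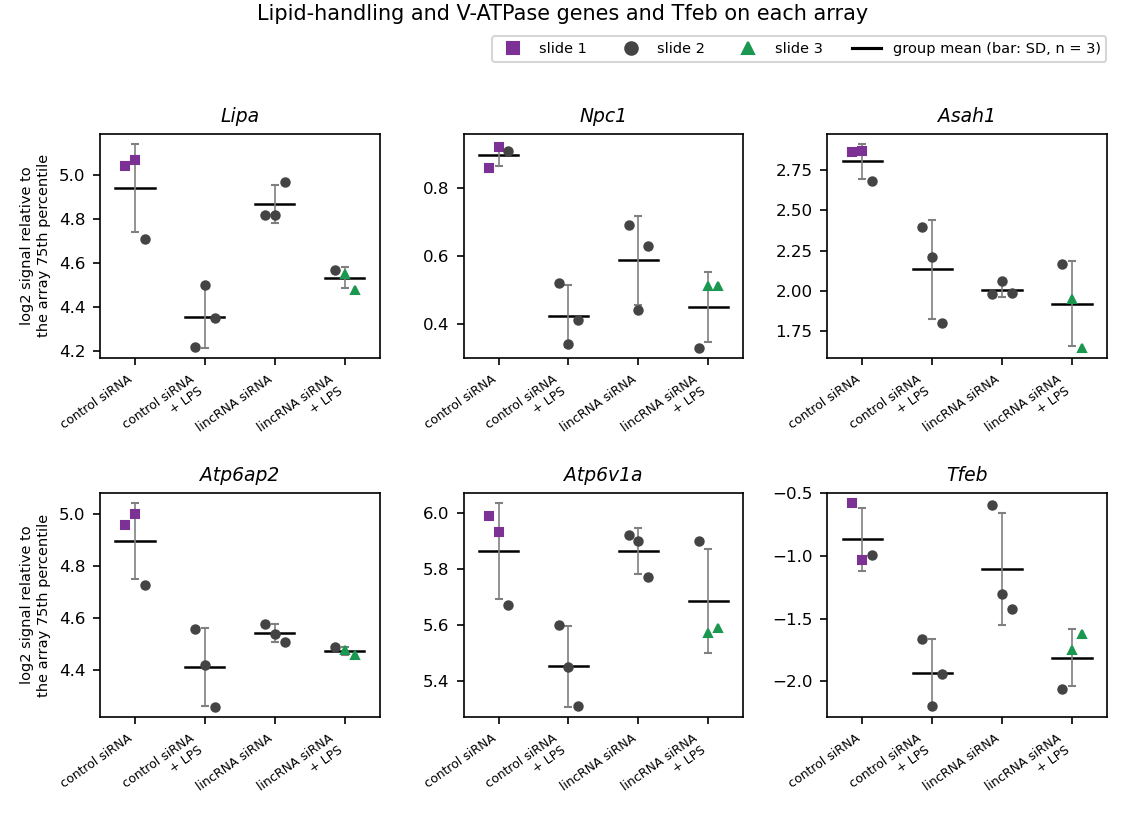
Level of Lipa, Npc1, Asah1, Atp6ap2, Atp6v1a and Tfeb on each of the 12 arrays, by group, with symbols for the slide, the group mean and the SD (n = 3); each panel has its own axis. The 3 control arrays lie above the 3 control-siRNA arrays with LPS in every panel, and for Lipa, Asah1, Atp6ap2 and Atp6v1a the slide 2 control array is the lowest of its group.

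None of the 10 peptidases passed in any comparison on the probe used, and a second probe of Ctsa fell on average, as given below. The median change was 0.16 in control-siRNA cells and 0.07 in lincRNA-siRNA cells, with 7 and 6 of the 10 above 0. Over all features, 44.1% and 51.7% were below 0. The cysteine cathepsins Ctsb, Ctsl and Ctss had changes of 0.26, 0.26 and 0.25 with the control siRNA, none past the threshold (adjusted p = 0.221, 0.302 and 0.284), and 0.09, 0.11 and 0.08 with the lincRNA siRNA. Ctsa, Ctsc and Ctsz had changes of 0.01, 0.22 and 0.11 with the control siRNA. Centring each array on its median instead of its 75th percentile shifted the median over all features to -0.21 in control-siRNA cells, so the sign of such small values depends on the scaling.

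Ctsd, the aspartic protease cathepsin D, was at 6.48, 6.38 and 6.48 on the control arrays and 6.33, 6.98 and 7.01 with LPS. In the lincRNA-siRNA groups it was at 6.35, 6.90 and 7.02 without LPS and 6.92, 7.01 and 7.15 with it. Replicate 1 of the control siRNA with LPS and replicate 1 of the unstimulated lincRNA siRNA thus stood with the control arrays, away from the other 2 of their own group. Its changes, 0.33 and 0.27, did not pass (adjusted p = 0.353 and 0.777). Ctsh, an aminopeptidase cathepsin, showed the same arrays apart with the opposite sign: -2.36, -2.47 and -2.58 on the control arrays and -2.37, -3.43 and -3.25 with LPS, then -2.46, -3.66 and -3.67 under the lincRNA siRNA and -3.55, -3.80 and -3.10 with LPS. Its intervals were the widest of the list, and its change of -0.55 ran from -1.36 to 0.27. The same 2 arrays also stood with the control arrays for genes outside the list. S100a8, among the markers of other cell types, was at -2.65, -2.49 and -2.60 on the control arrays. It was at -2.79 and -2.78 on these 2 arrays, and at -0.97 or higher on every other array. This split crosses LPS and siRNA, and its part in the comparisons was not tested.

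Tpp1, the tripeptidyl peptidase lost in a childhood neuronal ceroid lipofuscinosis, was at 2.47, 2.17 and 2.37 on the control arrays and at 2.07, 1.86 and 1.74 with LPS. With the lincRNA siRNA it was at 2.00, 1.84 and 1.58, and at 1.61, 1.25 and 1.52 with LPS. Every control array lay above every other array. The LPS changes were -0.44 (adjusted p = 0.129) and -0.35 (adjusted p = 0.477), and the average over both missed the threshold (-0.40, adjusted p = 0.0535). Lgmn, the asparaginyl endopeptidase that activates cathepsins, had changes of -0.25 and -0.24, without overlap in either siRNA and without passing (adjusted p = 0.19 and 0.482).

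**Figure D3:**
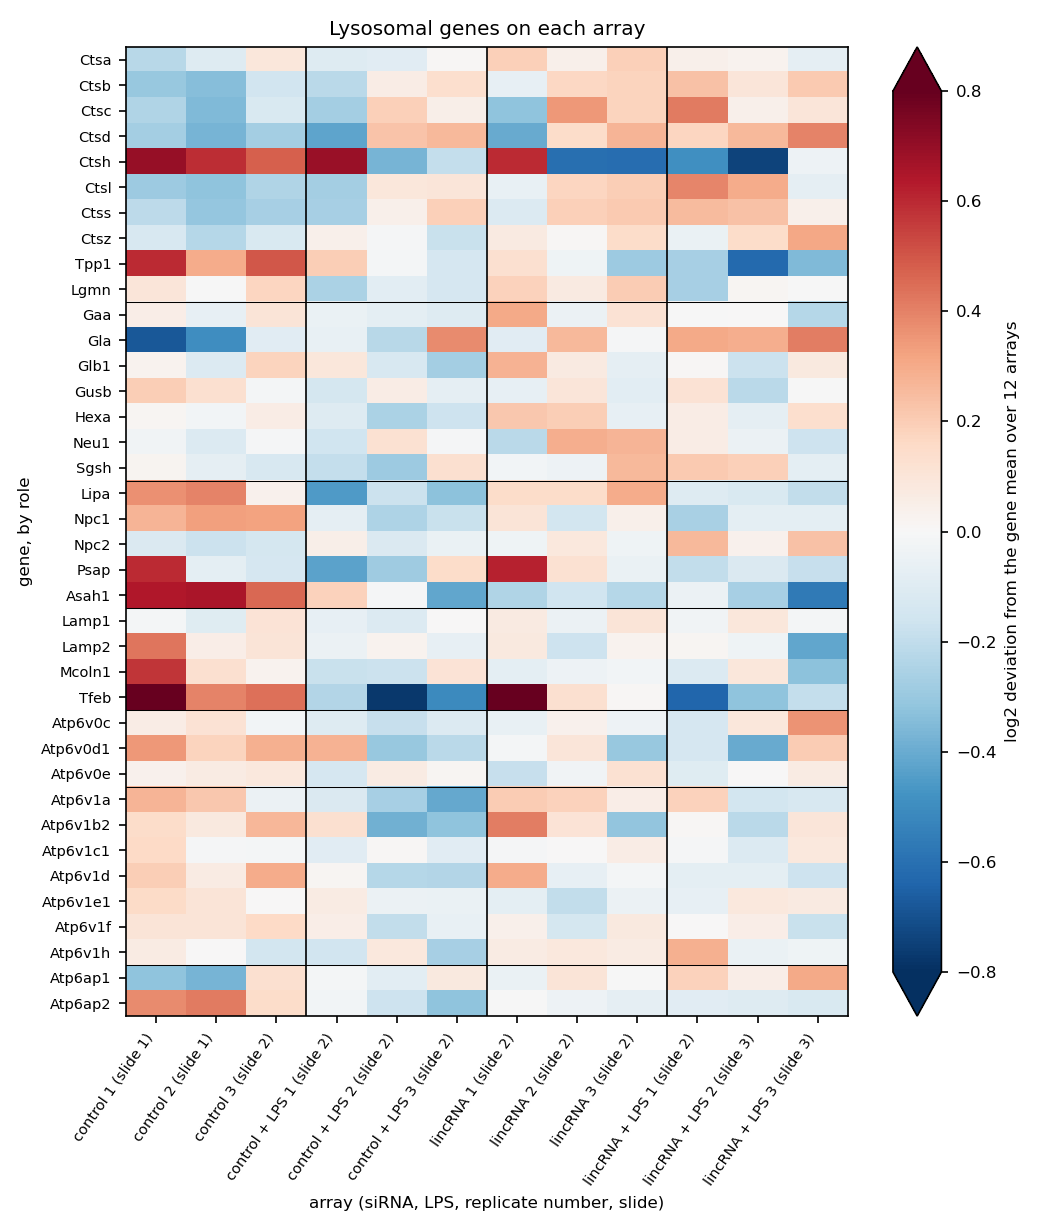
Deviation of each gene from its own mean over the 12 arrays, in log2, for the 38 genes (rows, by role) and 12 arrays (columns, by group, with replicate and slide); red is above and blue below the mean. Tpp1, Lipa, Npc1, Asah1, Tfeb and Atp6ap2 lie above their mean on the 3 control arrays, and Ctsh is above its mean on the control arrays and on replicate 1 of the control siRNA with LPS and of the lincRNA siRNA without it.

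None of the 7 glycosidases and sulfatases passed on the probe used, and a second probe of Sgsh fell, as given below. The median change was -0.11 with the control siRNA and -0.07 with the lincRNA siRNA. Gla, the galactosidase that cleaves globotriaosylceramide, had the highest change of the 37 in both siRNAs, 0.46 (adjusted p = 0.18) and 0.28 (adjusted p = 0.725). It was at 7.56, 7.74 and 8.15 on the control arrays and 8.18, 8.02 and 8.62 with LPS, and at 8.15, 8.50 and 8.23 against 8.54, 8.53 and 8.65 under the lincRNA siRNA. The 2 lowest values were those of the slide 1 arrays, and with the slide as a block the control-siRNA change was 0.13. Hexa, the hexosaminidase subunit that acts on GM2 ganglioside, was at 5.26, 5.22 and 5.30 on the control arrays and 5.14, 4.99 and 5.08 with LPS, without overlap. The lincRNA-siRNA arrays were at 5.46, 5.44 and 5.18, then 5.30, 5.17 and 5.38 with LPS, which overlapped. Its changes were -0.19 (adjusted p = 0.289) and -0.07.

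Gaa, which breaks down glycogen, was at 4.27, 4.15 and 4.32 on the control arrays and 4.16, 4.14 and 4.11 with LPS, and at 4.52, 4.17 and 4.33 against 4.21, 4.22 and 3.99 under the lincRNA siRNA. Both pairs of groups overlapped, and its changes were -0.11 and -0.20. The galactosidase Glb1, the glucuronidase Gusb, the sialidase Neu1 and the heparan sulfatase Sgsh had changes of -0.14, -0.16, 0.03 and -0.06 with the control siRNA, and of -0.12, -0.02, -0.17 and 0.04 with the lincRNA siRNA.

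None of the 3 membrane protein genes passed. Lamp1, the membrane glycoprotein that lines the lysosome, had changes close to 0. It was at 7.71, 7.63 and 7.84 on the control arrays and 7.66, 7.62 and 7.73 with LPS, and at 7.80, 7.68 and 7.83 against 7.70, 7.82 and 7.71 under the lincRNA siRNA. The changes were -0.05 (95% confidence interval -0.26 to 0.15) and -0.03 (-0.23 to 0.18). Lamp2, which also serves chaperone-mediated autophagy, had changes of -0.22 and -0.12. Mcoln1, the calcium channel TRPML1, had changes of -0.33 and -0.07 (adjusted p = 0.242 and 0.952).

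Tfeb was the gene of the 38 with the most negative LPS change in both siRNAs. Its probe lies on chromosome 17 (47929089 to 47929148, plus strand, mm9). It was at -0.58, -1.03 and -0.99 on the control arrays and -1.66, -2.20 and -1.94 with LPS. Under the lincRNA siRNA it was at -0.59, -1.30 and -1.42, and at -2.06, -1.75 and -1.62 with LPS. The groups did not overlap in either siRNA. Tfeb fell by 1.07 ± 0.24 on the log2 scale with the control siRNA (adjusted p = 0.0337), to 0.477 of its unstimulated level. With the lincRNA siRNA the change was -0.71 ± 0.24 (adjusted p = 0.289), and the average over both was -0.89 (adjusted p = 0.0111). With the slide as a block the values were -0.94 and -0.96 and did not pass (adjusted p = 0.492 and 0.635; control siRNA on slide 2 alone, adjusted p = 0.66). The control-siRNA call was lost without control replicate 1 (0.135), control replicate 2 (0.0825), LPS replicate 2 (0.129), LPS replicate 3 (0.121) or lincRNA-siRNA LPS replicate 2 (0.0514), and the average passed whichever array was left out and did not pass in the slide-block fit (-0.95, adjusted p = 0.138).

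The element that TFEB and its relatives bind has the palindromic core TCACGTGA, which contains the shorter E-box CACGTG. RefSeq promoters on GRCm38.p6, each of 250 bases before to 50 after a gene's start, were found for 31 of the 38 genes. On either strand, TCACGTGA was in the promoter of 7 of the 31 (22.6%), against 1.12% of 27025 genes, and CACGTG was in 13 (41.9%), against 8.09%. The 7 genes were Ctsa, Ctsd, Gla, Mcoln1, Atp6v0d1, Atp6v0e and Atp6v1a. The 5 stretches that lie before the start show the element in its surroundings, with the 8 matching bases in capitals; they are read on the gene's strand at chr2:164833730-164833772 (Ctsa), chr7:142387889-142387956 (Ctsd), chrX:134601163-134601255 (Gla), chr8:3500443-3500510 (Mcoln1) and chr16:44139354-44139421 (Atp6v1a):
Ctsa: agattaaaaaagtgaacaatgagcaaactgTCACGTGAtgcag
Ctsd: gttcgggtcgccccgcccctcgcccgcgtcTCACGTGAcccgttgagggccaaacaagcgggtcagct
Gla: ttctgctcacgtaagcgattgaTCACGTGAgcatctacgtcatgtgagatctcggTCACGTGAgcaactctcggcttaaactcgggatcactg
Mcoln1: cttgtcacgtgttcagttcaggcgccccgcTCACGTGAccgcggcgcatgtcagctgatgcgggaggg
Atp6v1a: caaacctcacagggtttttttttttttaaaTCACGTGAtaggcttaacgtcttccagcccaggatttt

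Gla carried 2 copies in this stretch. The 7 genes with the element had a median LPS change of -0.08 in control-siRNA cells and -0.04 in lincRNA-siRNA cells, and 0 of them passed in either. The 24 genes with a promoter and no match, Tfeb among them, had medians of -0.15 and -0.06, and 3 passed in control-siRNA cells (Lipa, Atp6ap2 and Tfeb). A match describes the letters and not binding.

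Of the 12 V-ATPase genes, 11 had a change below 0 with LPS in control-siRNA cells, with a median of -0.19, and 1 passed. Over all features, 44.1% were below 0 there and 1.89% fell. In lincRNA-siRNA cells 8 of the 12 were below 0, with a median of -0.03, and 0 passed. Over all features, 51.7% were below 0 there and 0.347% fell. The gene that fell was Atp6ap2, the prorenin receptor, which assists assembly of the pump; its probe lies on chromosome X (12193624 to 12193683, plus strand, mm9). It was at 4.96, 5.00 and 4.73 on the control arrays and 4.56, 4.42 and 4.26 with LPS. In the lincRNA-siRNA groups it was at 4.58, 4.54 and 4.51, and at 4.49, 4.48 and 4.46 with LPS. The control arrays stood above all others, and the 6 lincRNA-siRNA arrays spanned a narrow range. The change was -0.48 ± 0.11 (adjusted p = 0.0309) with the control siRNA and -0.07 ± 0.11 (adjusted p = 0.913) with the lincRNA siRNA, and the average over both was -0.27 (adjusted p = 0.0529). With the slide as a block the control-siRNA change was -0.31 (adjusted p = 0.605; on slide 2 alone, adjusted p = 0.766). The call was also lost without control replicate 1 (0.122), control replicate 2 (0.133), LPS replicate 2 (0.103), LPS replicate 3 (0.132) or unstimulated lincRNA-siRNA replicate 2 (0.0532). The other accessory gene, Atp6ap1, was at 2.96, 2.91 and 3.41 on the control arrays and 3.27, 3.20 and 3.36 with LPS, and at 3.23, 3.39 and 3.28 against 3.47, 3.34 and 3.59 under the lincRNA siRNA. Both pairs overlapped, and its changes were 0.18 and 0.16. Among 13 other genes listed with the V-ATPase, the tilt was weaker. With the control siRNA 8 of these 13 were below 0 (median -0.06), and with the lincRNA siRNA 5 were (median 0.1).

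In the V1 sector, which hydrolyses ATP, all 7 genes had a change below 0 with the control siRNA and 0 passed. Over all features 44.1% were below 0, and the second probe of Atp6v1a gave a change of 0.06. The catalytic subunit gene Atp6v1a was at 5.99, 5.93 and 5.67 on the control arrays and 5.60, 5.45 and 5.31 with LPS, without overlap (change -0.41, adjusted p = 0.108). The lincRNA-siRNA arrays were at 5.92, 5.90 and 5.77, and at 5.90, 5.57 and 5.59 with LPS (change -0.17). The central stalk gene Atp6v1d was at 4.74, 4.61 and 4.84 on the control arrays and 4.56, 4.32 and 4.31 with LPS, and at 4.84, 4.48 and 4.53 against 4.47, 4.47 and 4.38 under the lincRNA siRNA. It did not overlap in either siRNA, and its changes were -0.34 (adjusted p = 0.145) and -0.18 (adjusted p = 0.737). The peripheral stalk gene Atp6v1e1 was at 4.74, 4.69 and 4.59 on the control arrays and 4.65, 4.54 and 4.53 with LPS, then 4.51, 4.39 and 4.54 under the lincRNA siRNA and 4.52, 4.67 and 4.66 with LPS. Its changes were -0.10 and 0.13.

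Atp6v1h, a regulatory subunit gene, had the smallest V1 change with the control siRNA. It was at 2.06, 2.00 and 1.85 on the control arrays and 1.84, 2.08 and 1.73 with LPS, and at 2.06, 2.08 and 2.06 against 2.28, 1.94 and 1.96 under the lincRNA siRNA. Its changes were -0.08 and -0.01, and its groups overlapped. The remaining V1 genes Atp6v1b2, Atp6v1c1 and Atp6v1f had changes of -0.35, -0.10 and -0.19 with the control siRNA, and of -0.11, -0.03 and -0.04 with the lincRNA siRNA.

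In the membrane sector V0, 3 of 3 genes were below 0 with the control siRNA, where 44.1% of all features were, and 0 passed. Atp6v0d1, which joins the rotor to V1, was at 4.87, 4.70 and 4.81 on the control arrays and 4.80, 4.22 and 4.31 with LPS, where replicate 1 stayed among the control values. Under the lincRNA siRNA it was at 4.51, 4.62 and 4.22, and at 4.39, 4.12 and 4.73 with LPS. Its changes were -0.36 (adjusted p = 0.281) and -0.04. The proteolipid gene Atp6v0c was at 6.91, 6.97 and 6.83 on the control arrays and 6.75, 6.67 and 6.74 with LPS, without overlap, and at 6.79, 6.89 and 6.81 against 6.72, 6.94 and 7.21 under the lincRNA siRNA. Its changes were -0.18 (adjusted p = 0.366) and 0.13 (adjusted p = 0.823). Atp6v0e, a small V0 subunit gene, was at 7.28, 7.31 and 7.33 on the control arrays and 7.11, 7.31 and 7.26 with LPS, and at 7.06, 7.22 and 7.37 against 7.15, 7.25 and 7.31 under the lincRNA siRNA. Its changes were -0.08 and 0.02.

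The siRNAs were then compared with each other. Without LPS, 0 of the 37 genes passed, and 0% of all features did. With LPS the counts were again 0 of 37 and 0%. The siRNA averaged over both LPS states gave 0 of 37 against 0.151% of features, and the interaction, which asks whether the LPS change differs between siRNAs, gave 0 of 37 against 0%. The numbers of the 37 with an unadjusted p under 0.05 were 8, 2, 9 and 3 in that order, where 18.5%, 4.63%, 17.3% and 3.74% of all features had one. The lowest adjusted p was 0.193, 0.976, 0.131 and 0.891. Without control replicate 3, which leaves only slide 1 arrays in the control group, 2 of the 37 and 2609 features passed for the siRNA without LPS, and 1 of the 37 and 1620 features for its average; of the interaction 356 features and 0 of the 37 passed. Without replicate 1 of the unstimulated lincRNA siRNA, 133 features passed for the siRNA without LPS and 213 for its average. The LPS changes that passed with the control siRNA were not shown to differ from those with the lincRNA siRNA. The difference was 0.41 (95% confidence interval 0.08 to 0.74) for Atp6ap2 and 0.34 (0.02 to 0.66) for Npc1, and 0.58 (0.04 to 1.12) for Asah1, whose own change had not passed, each with an adjusted p of 0.891. For Tfeb it was 0.36 (-0.40 to 1.12).

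Without LPS, 8 of the 37 lay lower and 7 higher with the lincRNA siRNA without overlap, where 9.22% and 12.2% of all features did so. The lower ones included Asah1 (-0.79, adjusted p = 0.193), Tpp1 (-0.53, adjusted p = 0.208), Atp6ap2 (-0.35, adjusted p = 0.211) and Npc1 (-0.31, adjusted p = 0.22). The higher ones included Gla (0.48), Ctsl (0.39), Ctsb (0.36) and Ctss (0.36), with adjusted p-values of 0.243, 0.235, 0.221 and 0.235. These comparisons share the control arrays with the LPS comparison above, and 2 of those 3 arrays are the only ones on slide 1. With the slide as a block the unstimulated difference was -0.18 for Atp6ap2 and 0.14 for Gla, and -0.67 for Asah1 and -0.56 for Tpp1. These slide-block values rest on 1 control array and give a size only.

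For 8 of the 37 genes a second probe was measured, and for some it differed from the probe used. Sgsh has abutting probes on chromosome 11: the one used (119204865 to 119204924, minus strand, mm9) gave LPS changes of -0.06 and 0.04, and its neighbour (119204805 to 119204864) gave -0.82 (adjusted p = 0.0241 over all probes) and -0.61 (adjusted p = 0.154). The neighbour was at 2.47, 2.41 and 2.85 on the control arrays and 1.85, 1.69 and 1.73 with LPS, and at 2.56, 2.29 and 2.06 against 1.87, 1.49 and 1.70 under the lincRNA siRNA. The LPS arrays were lower without overlap in both siRNAs. Averaged over both siRNAs the neighbour changed by -0.72 (adjusted p = 0.00521 over all probes). The second probe of Ctsa gave -0.69 and -0.62, against 0.01 and -0.14 for the probe used. Averaged over both siRNAs its fall passed (-0.66, adjusted p = 0.0145 over all probes), while neither change within a single siRNA did (0.0699 and 0.209). For Atp6v1a the second probe gave 0.06 in control-siRNA cells against -0.41. The second probe of Asah1 gave -0.44 and -0.14, and that of Ctsd 0.39 and 0.25, both of the same sign as the probe used. That of Gaa gave 0.01 and 0.02 against -0.11 and -0.20 for the probe used. The second probe of Atp6ap1 gave -0.03 and 0.22 against 0.18 and 0.16, and that of Lamp2 gave -0.24 and 0.08 against -0.22 and -0.12. The size or sign of an LPS change of Sgsh, Ctsa, Atp6v1a, Gaa, Atp6ap1 or Lamp2 thus depends on the probe.

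Genes around this list were examined through further lists. Among 21 genes of the TFEB family and of mTORC1 control at the lysosome, 4 fell with LPS in control-siRNA cells and 2 in lincRNA-siRNA cells, where 1.89% and 0.347% of all features fell, and 0 rose in either. Flcn and Fnip2, partners in the folliculin complex through which mTORC1 restrains TFEB, fell in both. Flcn was at 2.89, 2.96 and 3.09 on the control arrays and 2.38, 2.42 and 2.30 with LPS, and at 3.03, 2.78 and 3.01 against 2.36, 2.56 and 2.32 under the lincRNA siRNA. Its LPS arrays lay below every unstimulated array. The changes were -0.61 (adjusted p = 0.0115) and -0.53 (adjusted p = 0.0448), and the average was -0.57 (adjusted p = 0.00153). The average also passed with the slide as a block (-0.65). That value rests on 1 control array and 1 LPS array of the lincRNA siRNA. Fnip2 was at 3.50, 3.25 and 3.28 on the control arrays and 2.53, 2.40 and 2.31 with LPS, and at 3.25, 2.81 and 3.04 against 2.35, 2.41 and 2.06 under the lincRNA siRNA. It changed by -0.93 (adjusted p = 0.00507) and -0.76 (adjusted p = 0.0257). In the slide-block fit Fnip2 changed by -0.78 on average and passed, with the same limit. With each of the 12 arrays left out in turn, the control-siRNA call was lost for Flcn without LPS replicate 3 (adjusted p = 0.0593) and for Fnip2 in 0 cases; with the lincRNA siRNA it was lost in 10 cases for Flcn (highest adjusted p = 0.165) and in 6 for Fnip2 (highest 0.096). Within a single siRNA neither gene passed with the slide as a block (Flcn adjusted p = 0.112 and 0.279, Fnip2 0.184 and 0.447) or on slide 2 alone (0.233 and 0.412, 0.283 and 0.499).

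The other 2 genes that fell in control-siRNA cells were Rragc, a GTPase that recruits mTORC1 (-0.61, adjusted p = 0.0468), and Tsc1, of the complex that inhibits it (-0.45, adjusted p = 0.0455). With the lincRNA siRNA they were at -0.16 (adjusted p = 0.821) and -0.45 (adjusted p = 0.091). With the slide blocked neither passed (adjusted p = 0.698 and 0.516), and leaving out 1 of the 12 arrays lost the control-siRNA call of Rragc in 9 cases (highest adjusted p = 0.177) and of Tsc1 in 8 (highest 0.174). The list's median change was -0.19 with the control siRNA and -0.07 with the lincRNA siRNA.

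Of 25 other lysosomal membrane genes, 3 rose and 2 fell with LPS in control-siRNA cells, where 3.26% of all features rose and 1.89% fell, and 2 rose in lincRNA-siRNA cells, where 1.5% rose. Slc15a3, a proton-coupled peptide and histidine transporter, was at 2.10, 2.17 and 1.92 on the control arrays and 3.21, 3.09 and 3.19 with LPS, and at 1.65, 1.77 and 1.93 against 2.85, 2.95 and 3.08 under the lincRNA siRNA. It rose 2.15-fold (adjusted p = 0.000407) and 2.26-fold (adjusted p = 0.000487). Slc15a3 passed in the slide-block fit in both siRNAs, and on slide 2 alone in neither. In each of these comparisons 1 of the groups rests on 1 array. Cln3, mutated in juvenile neuronal ceroid lipofuscinosis, rose by 0.42 (adjusted p = 0.0499) and 0.69 (adjusted p = 0.00765), without passing in the slide-block fit (adjusted p = 0.496 and 0.219). Mcoln2, the TRPML2 channel, was well above background on 1 of 3 control arrays and on all 9 others, so the size of its change with the control siRNA is uncertain. It was at -4.29, -5.77 and -3.23 on the control arrays, -2.53, -1.38 and -1.29 with LPS, and at -2.91, -2.17 and -2.25 against -1.04, -1.53 and -1.58 under the lincRNA siRNA. Its change was 2.70 (adjusted p = 0.0261) and 1.06 (adjusted p = 0.607), and 1.5 in the slide-block fit of control-siRNA cells (adjusted p = 0.606). The 2 that fell were Ctns, the cystine exporter (-0.74, adjusted p = 0.0138), and Mfsd8 (-0.61, adjusted p = 0.0276), which were at -0.40 (adjusted p = 0.292) and -0.17 (adjusted p = 0.768) under the lincRNA siRNA and did not pass with the slide as a block. With 1 of the 12 arrays left out, the control-siRNA call of Slc15a3 was lost in 0 cases, of Cln3 in 10 (highest adjusted p = 0.193), of Mcoln2 in 4 (0.117), of Ctns in 3 (0.0647) and of Mfsd8 in 4 (0.118).

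**Figure D4:**
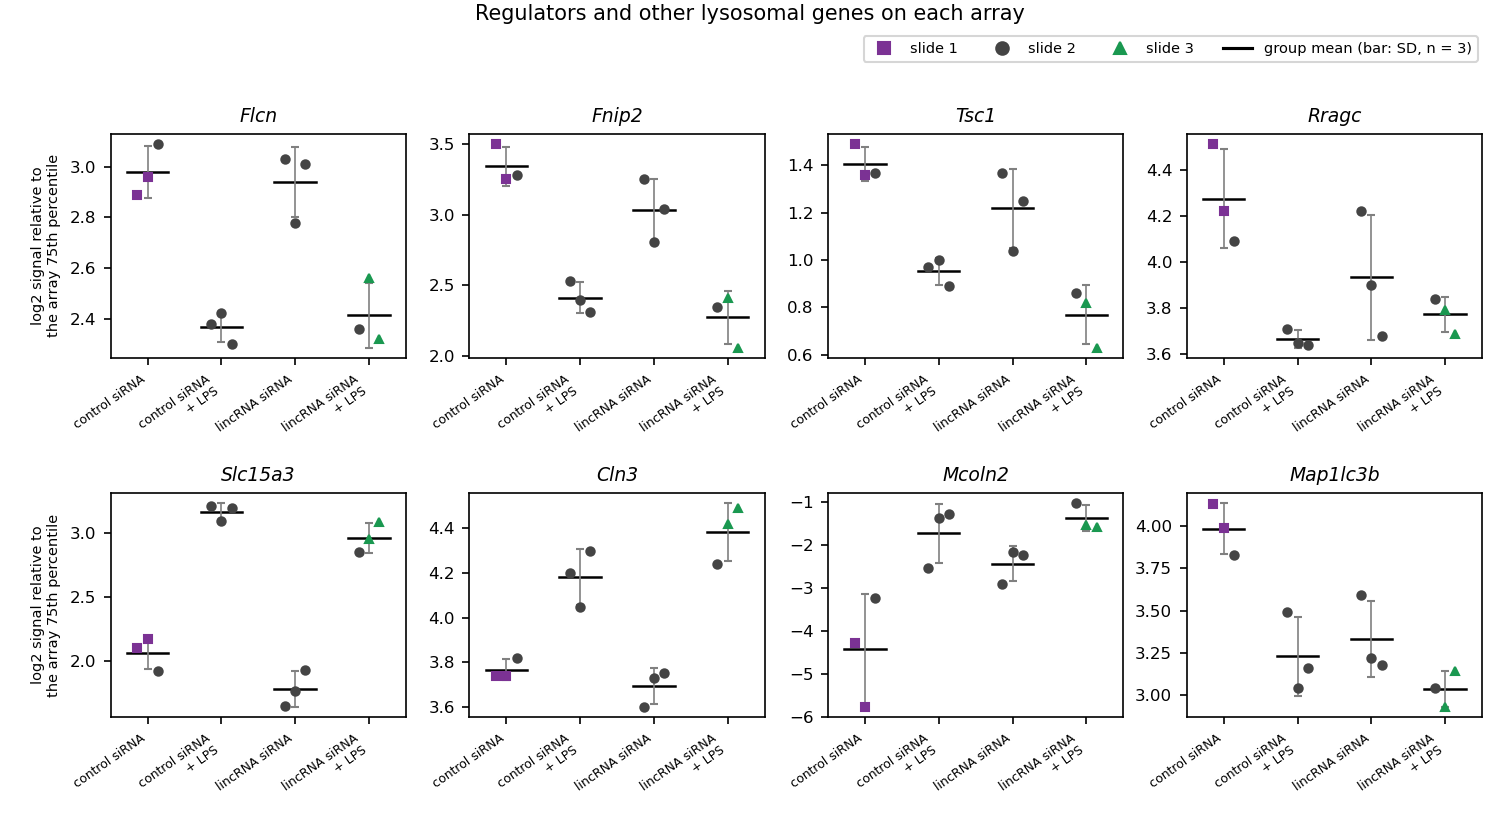
Level of 4 regulators (Flcn, Fnip2, Tsc1, Rragc), 3 other lysosomal membrane genes (Slc15a3, Cln3, Mcoln2) and the autophagy gene Map1lc3b on each array, drawn as in the plot of lipid-handling genes. Flcn, Fnip2 and Tsc1 are lower and Slc15a3 and Cln3 higher with LPS in both siRNAs without overlap, and Rragc overlaps under the lincRNA siRNA.

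None of 34 other lysosomal hydrolase genes and none of 13 other genes listed with the V-ATPase passed with LPS in either siRNA. Not all of the 13 encode pump subunits. Averaged over both siRNAs, Galc, the galactosylceramidase, fell by 0.43 (adjusted p = 0.0457). Of the genes listed with the V-ATPase, Tcirg1 rose (0.40, adjusted p = 0.0298) and Dmxl1, not a pump subunit gene, fell (-0.59, adjusted p = 0.0143) on average. Of 19 genes that sort enzymes to the lysosome, 1 fell in control-siRNA cells, Gnptab, which starts the mannose 6-phosphate tag (-0.47, adjusted p = 0.0377), and 0 passed in lincRNA-siRNA cells. Of 20 autophagy genes, 1 fell in control-siRNA cells, Map1lc3b, which encodes the LC3B of autophagosome membranes (-0.75, adjusted p = 0.0246), and 0 passed in lincRNA-siRNA cells. Over all features 1.89% fell in control-siRNA cells, and 4.01% fell and 4.2% rose averaged over both siRNAs. With the slide blocked, 0 of these 5 passed. Averaged over both siRNAs, Nagpa and the autophagy receptor Sqstm1 rose by 0.37 and 0.35 on the log2 scale, without passing in the slide-block fit (adjusted p = 0.289 and 0.196). Gga3, Vps33a, Uvrag and the membrane proteins Slc15a4 and Tpcn1 had average changes of -0.31, -0.39, -0.40, -0.31 and -0.66, each past the threshold and none past it with the slide blocked. The control-siRNA calls of Gnptab and Map1lc3b were lost with 7 and 4 of the 12 arrays left out (highest adjusted p = 0.149 and 0.105).

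Of 11 genes for protease inhibitors, 1 rose in both siRNAs, and 1 fell with the control siRNA. Over all features, 3.26% rose and 1.89% fell with the control siRNA, and 1.5% rose with the lincRNA siRNA. Slpi, the secretory leukocyte peptidase inhibitor, was at 2.51, 2.55 and 2.12 on the control arrays and 4.47, 5.05 and 5.11 with LPS, and at 3.24, 3.84 and 4.04 against 5.64, 5.64 and 5.38 under the lincRNA siRNA. It rose 5.59-fold (adjusted p = 0.000292) and 3.59-fold (adjusted p = 0.00279). With the slide as a block Slpi passed in control-siRNA cells and not in lincRNA-siRNA cells, and on slide 2 alone in neither. In each of these comparisons 1 of the groups rests on 1 array. Serpinb1a, an inhibitor of neutrophil-type serine proteases, fell with the control siRNA (-0.55, adjusted p = 0.027) and was at -0.25 (adjusted p = 0.515) with the lincRNA siRNA; its call was lost in the slide-block fit (adjusted p = 0.423) and with 4 of the 12 arrays left out (highest adjusted p = 0.119). Of 9 osteoclast markers tested, 2 rose with LPS in control-siRNA cells (Mmp9 by 1.32 and Ocstamp by 0.76), where 3.26% of all features rose, and neither passed in the slide-block fit (adjusted p = 0.352 and 0.324). With the lincRNA siRNA 0 of the 9 passed, with changes of 1.11 (adjusted p = 0.143) and 0.35 (adjusted p = 0.387) for Mmp9 and Ocstamp. With the control siRNA 7 of the 9 had a change above 0. There 3 lay higher with LPS without overlap and 2 lower, where 14.8% and 15.3% of all features did so. The lower ones were Acp5 and Nfatc1, the latter at 3.83, 3.90 and 3.59 against 3.48, 2.60 and 2.57, neither past the threshold. The part of these markers in the lysosomal values was not tested.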

How the data were processed

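RNA of 12 RAW264.7 samples was labelled with Cy3 and hybridised to 1-colour Agilent arrays; per the file headers the authors' scans were extracted with Agilent Feature Extraction 10.7.1.1, and the probe positions are on mm9. The deposited per-array files hold a background-subtracted processed signal intensity, and mean and background signal intensities, for each spot. The deposited series table holds log2 values with a median of 4.756 on every array; no source used here states its normalization, and its values had a rank correlation of at least 0.999962 with the processed signal of the same array.

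The log2 processed signal minus the array's 75th percentile was used. Outlier-flagged spots (0.312%) were left out, spots of a probe were averaged, and probes were kept if at least 1 group had them well above background on each of its 3 arrays (33129 of 55681 probes). Each gene took its brightest kept probe, which gave 23888 features. Old symbols were updated through RefSeq accessions. limma 3.58.1 in R 4.3.3 fitted 1 mean per group over the 12 arrays (8 residual degrees of freedom), with Benjamini-Hochberg adjustment over all features. The alternatives were the slide as a block (6 residual degrees of freedom), slide 2 alone (4), normexp with an offset of 50, quantile normalization, median centring, the authors' log2 table, other probe filters, the mean over probes, an intensity trend, a replicate block, and leaving out each array in turn. The number of arrays limits the precision.

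Arrays' values are printed for genes that passed in any of the 7 comparisons, for the highest and lowest LPS change of each role group, and for Tfeb, Lamp1 and Ctsd; of the other lists of lysosomal, regulatory and inhibitor genes, those that passed with LPS are named, at most 4 per direction, except 1 that passed on average and is not reported here. Other genes named without array values complete the list. The members and lists were chosen with earlier results of these data known. Promoters were read from a RefSeq table (GRCm38.p6) and searched for the motifs on both strands; 7 of the 38 genes were not in it. Figures were drawn with matplotlib.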

Additional observations from a re-analysis of the deposited data

How the results depend on the processing

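The number of lysosomal genes past the threshold changed with the slide, the probe filter and single arrays. In control-siRNA cells 3 of the 37 genes passed, against 0 with the slide as a block, 0 on slide 2 alone and 0 without a filter on dim probes, and 5 each with median centring, the mean over kept probes and the replicate block; leaving out 1 array gave 0 to 6. Lipa, Npc1 and Atp6ap2 kept their sign in all 23 alternatives and lost the threshold in 7, 7 and 9 of them, and Tfeb in 8; Asah1 gained it in 8. Without a filter their adjusted p-values were 0.0656, 0.0857, 0.0886 and 0.068, and normexp gave Atp6ap2 0.0799. The count over all features was 1229, and 231 with the slide as a block, 42 on slide 2 alone, 715 without the filter and 536 to 3974 with 1 array left out, the highest without control replicate 3. In lincRNA-siRNA cells 0 of the 37 passed in any of the 23 alternatives, while the feature count of 442 became 158 with the slide as a block, 45 on slide 2 alone and 246 to 470 with 1 array left out. Averaged over both siRNAs, 2 of the 37 passed; it was 0 with the slide as a block and on slide 2 alone, 1 without the filter, 7 with median centring, 4 with probes well above background on all 12 arrays, 5 with the mean over probes, 5 with an intensity trend, 6 with the replicate block and 1 to 5 with 1 array left out. Median centring moved the median lysosomal change from -0.14 to -0.40 with the control siRNA and from -0.04 to -0.14 with the lincRNA siRNA, while it moved that over all features to -0.21 and -0.10; averaged over both siRNAs it turned 1004 higher and 958 lower features into 674 and 1901. Without control replicate 3, 2 of the 37 passed for the siRNA without LPS and 1 for its average (0 to 2 and 0 to 1 over the arrays left out). The cause of these differences was not tested.

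Replicate numbers gave no clear pairing of the samples. Of 18 pairs of groups' arrays with the same number, 8 correlated above 0.1 in their deviations from the group means. The range was -0.299 to 0.469, against -0.465 to 0.469 for pairs with different numbers. Of the 12 arrays, 5 correlated best with their own number. Whether the samples were paired in part was not tested. With the replicate block, Lipa, Npc1, Atp6ap2 and Tfeb passed in control-siRNA cells with unchanged values (-0.58, -0.47, -0.48 and -1.07).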
